A study of Homo sapiens with 2 samples.

Results

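Ephrins, Eph receptors, semaphorins and plexins are ligands and receptors of cell guidance, and their mRNAs were compared between FaDu cells carrying GLUT4 and FaDu cells carrying the control vector. The members were all probe sets whose platform annotation names exactly 1 gene of these families, which gave 120 of 54675 probe sets and 50 of 19775 named genes. These were 8 ephrins, 13 Eph receptors, 20 semaphorins and 9 plexins, so that 28 genes encode ligands and 22 encode receptors. No probe set names the Eph receptor EPHB2 alone, so EPHB2 is missing from the receptors and pairs below. FaDu is a squamous carcinoma line of the pharynx. In both groups the cells were stably transduced, with the GLUT4 sequence in one group and the control vector in the other, and both groups were selected with puromycin. The sources call the lines stable clones and do not say whether each line came from a single clone. Total RNA of each group was hybridized to 1 Affymetrix Human Genome U133 Plus array.

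Ephrins are membrane-bound ligands. A-type ephrins are held by a lipid (GPI) anchor and B-type ephrins span the membrane, and both bind Eph receptor tyrosine kinases on a neighbouring cell, so that signals can run into both cells. Semaphorins act mainly through plexins, which regulate small GTPases and the cytoskeleton, and most secreted (class 3) semaphorins need a neuropilin as co-receptor. The families were first described in axon guidance and also regulate adhesion, migration and boundary formation in epithelia and blood vessels.

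Each intensity given is the deposited value of a probe set on a linear scale, and each difference is taken on the log2 scale as GLUT4 minus vector, so that a negative value means less signal with GLUT4. A gene was represented by its main probe set, the one with the highest mean log2 intensity of both arrays. Intensities of different probe sets do not compare amounts of different mRNAs. Each group had a single array, which allows neither a replicate check nor a test, so "higher" and "lower" describe these 2 arrays only. The spread between probe sets was estimated from genes that several probe sets detect. It leaves out variation between cultures or RNA samples that all probe sets of a gene share. It is therefore not the error of a difference between the groups. Over 10523 genes with several probe sets, the gap between the main and the next probe set had an SD of 0.29. Dividing it by the square root of 2 gave an SD of 0.20 for a single probe set. That step takes the scatter of both probe sets as equal and independent. The threshold of 1.5-fold is that of the study's methods and corresponds to a log2 difference of 0.58. The median signal of all probe sets was 39.3, and signals below it are called dim here.

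SLC2A4, which encodes GLUT4, read 28.3 in the vector cells and 32.6 in the GLUT4 cells, a difference of 0.20. Whether its probe set detects the introduced sequence was not determined, and the value is therefore no check on the group labels. Of 8 squamous epithelial markers, 5 were analysed here, and the basal keratin KRT5 (11024 and 13093) and the desmosomal cadherin DSG3 (516 and 556) were bright on both arrays. KRT14, also a basal keratin, was 2.03-fold higher with GLUT4, while the epithelial adhesion molecule EPCAM was 1.77-fold lower and E-cadherin (CDH1) 1.45-fold lower.

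Most guidance genes differed little between the arrays. Of the 50 genes, 1 was more than 1.5-fold lower with GLUT4, SEMA3A, and 0 were more than 1.5-fold higher. Of all 19775 genes, 1.54% were more than 1.5-fold lower and 1.84% more than 1.5-fold higher, so the count of 1 in 50 lies near the background. Among the 34 guidance genes above the median signal the counts were also 1 lower and 0 higher, beside 1.99% and 2.38% of all genes above that signal. Counted by probe set, 3 of the 120 were more than 1.5-fold lower and 1 was more than 1.5-fold higher, beside 1.38% and 1.96% of the 41097 probe sets that name 1 gene. The 3 lower probe sets are those of SEMA3A, and the higher one is a dim probe set of SEMA6A. Counting differences of any size, 38 of the 50 guidance genes lay below 0, which is 76.0%, beside 52.2% of all genes. Their median was -0.09, with quartiles at -0.20 and -0.01, and the median of all genes was -0.02, with quartiles at -0.15 and 0.12. The gap of -0.08 between these medians came to -0.03 without probe sets ending in x_at or s_at, to -0.04 after 32 was added to all intensities, and to -0.12 over genes above the median signal. Lower by more than 0.20, the SD derived for a single probe set, were 13 guidance genes (26.0%), beside 18.0% of all genes. Higher by more than it were 3 (6.0%), beside 14.7%. These 3 were PLXNA2, EPHB1 and SEMA3G. The 70 further probe sets of the guidance genes, those that are not the main one, had a median of -0.04 with 54.3% below 0, beside 50.8% of all further probe sets.

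**Figure D1:**
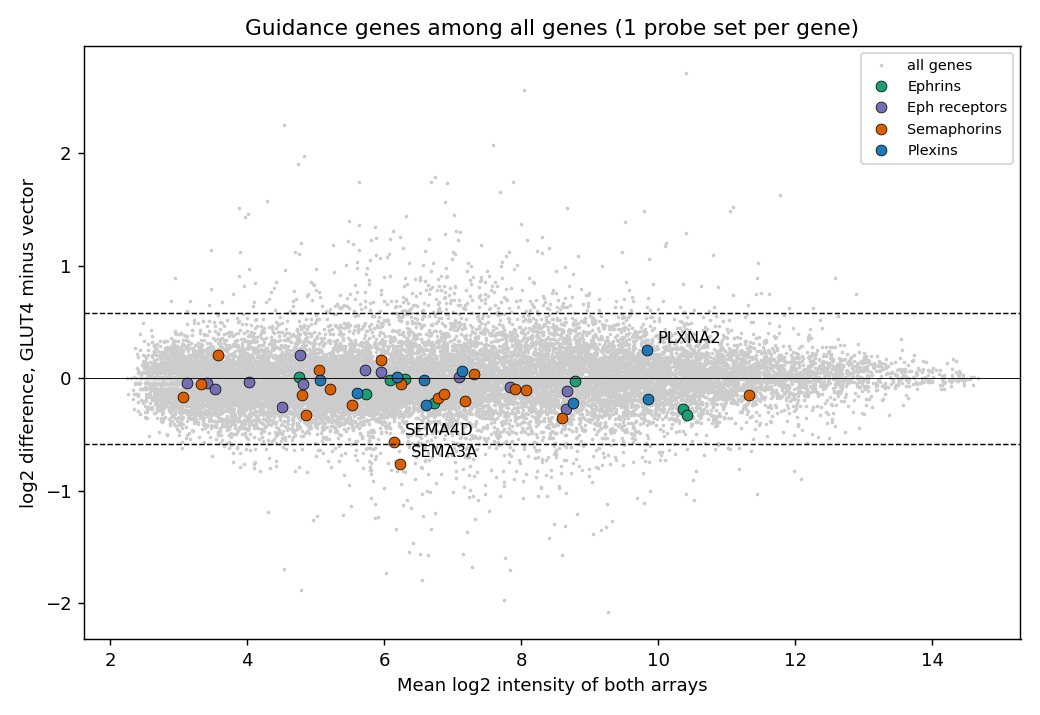
The vertical axis gives the log2 difference between the GLUT4 and the vector array and the horizontal axis the log2 intensity averaged over both, with all genes in grey, guidance genes coloured by role and dashed lines at 1.5-fold. SEMA3A is the guidance gene past a dashed line at -0.76, SEMA4D lies just inside it at -0.57, and PLXNA2 is the highest at 0.25.

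SEMA3A, a secreted semaphorin that repels axons and migrating cells through neuropilin-1 and A-type plexins, was lower with GLUT4 on each of its 3 probe sets. Its main probe set read 98.1 in the vector cells and 57.7 in the GLUT4 cells, a difference of -0.76 (1.70-fold lower). The next read 22.2 and 8.96 (-1.31), and the dimmest read 13.2 and 8.29 (-0.67). All 3 lie past 1.5-fold, and the last 2 were dim on both arrays. Of 5508 genes with 3 or more probe sets, 9 (0.163%) were more than 1.5-fold lower on every one. Besides SEMA3A, these were ATP8A2, CCL5, JUN, KRCC1, PLAUR, SH3KBP1, USP37 and ZC3HAV1. Among all genes by main probe set, SEMA3A stood at rank 138 of 19775 from the lowest. After adding 32 to all intensities, a step that shrinks differences of dim probe sets, its value came to -0.54 and was within 1.5-fold.

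The other 6 secreted semaphorins were within 1.5-fold. SEMA3C, which acts through neuropilins and PLXND1, read 2710 and 2443 (-0.15) on its main probe set and 208 and 201 (-0.05) on the other. SEMA3F, a ligand of neuropilin-2, read 156 and 135 (-0.21). SEMA3B, SEMA3D, SEMA3E and SEMA3G were dim on both arrays, with differences of 0.08, -0.05, -0.17 and 0.21. Next to SEMA3A on chromosome 7 lie SEMA3E and SEMA3D, with no other protein-coding gene between SEMA3A and either of them, and SEMA3C lies 3 protein-coding genes beyond SEMA3E. None of these neighbours showed a difference of the size of that of SEMA3A, but SEMA3D (10.2 and 9.89) and SEMA3E (8.88 and 7.89) were near the lowest signals of the arrays.

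The membrane-spanning semaphorins had a median of -0.12 over 12 genes, of which 10 lay below 0. SEMA4D, which binds PLXNB1, came closest to the threshold. Its main probe set read 86.1 and 58.2, a difference of -0.57 (1.48-fold lower), while its dim probe set read 16.4 and 18.2 (0.16), and the mean of both was -0.21. SEMA4C, a ligand of PLXNB2, was lower on both of its probe sets, from 436 to 342 (-0.35) and from 197 to 169 (-0.23). SEMA4G was dim and read 32.6 and 25.9 (-0.33). SEMA4B read 277 and 258 (-0.10), and SEMA4A read 156 and 161 (0.04). SEMA4F read 248 and 232 (-0.10) on its main probe set, but its other 2 gave 0.05 and 0.23. SEMA5A showed how probe sets of 1 gene can disagree, with -0.23 on its main probe set (50.4 to 42.8) and 0.35 and 0.49 on its dim ones (21.7 to 27.7 and 18.5 to 26.0). SEMA6A read 29.5 and 26.6 (-0.15) on its main probe set, and a probe set at 7.06 and 10.9 gave 0.62, past 1.5-fold. At such low signal that value does not show that SEMA6A was higher, and its other 4 probe sets lay between -0.26 and 0.09. SEMA6C was the highest of these genes at 0.16 (58.5 to 65.3). SEMA7A, the GPI-anchored semaphorin, which signals through integrins and PLXNC1, was at -0.14 (123 to 111).

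**Figure D2:**
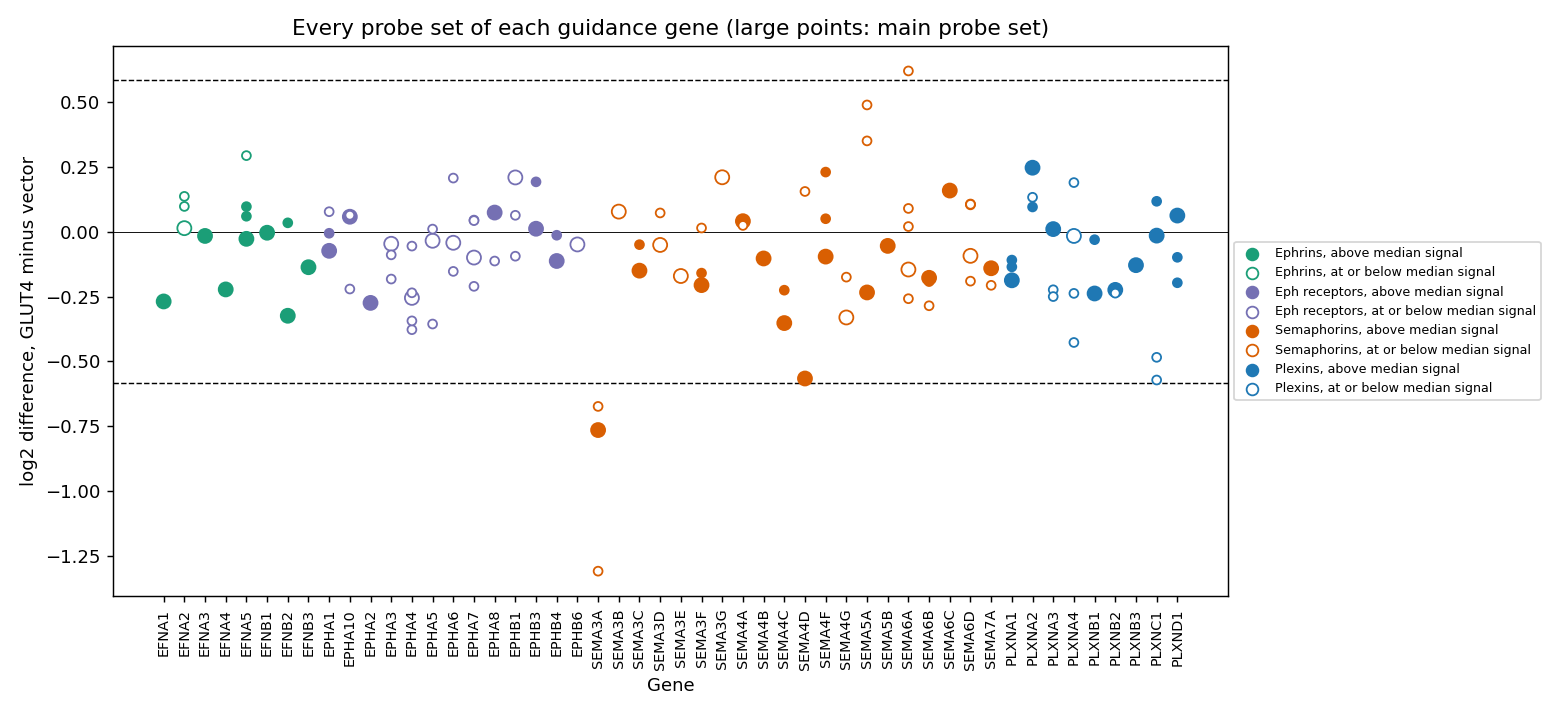
Each point is 1 probe set of a guidance gene, with the log2 difference between the GLUT4 and the vector array on the vertical axis, genes along the horizontal axis and dashed lines at 1.5-fold. Large points are main probe sets and open points lie at or below the median signal. The 3 points of SEMA3A lie below the lower line, and a small open point of SEMA6A at 0.62 lies above the upper line.

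Plexins, the semaphorin receptors, had a median of -0.02 over 9 genes. PLXNA1, a signalling partner of neuropilins, read 989 and 869 (-0.19), and its 3 probe sets all lay below 0. PLXNA2, its close relative, read 835 and 991 (0.25), and its 3 probe sets all lay above 0, at 0.25, 0.10 and 0.13. Both differences are close to the SD of 1 probe set. Of 23 guidance genes with 3 or more probe sets, 5 lay below 0 on every one (EPHA3, EPHA4, PLXNA1, SEMA3A and SEMA6B). That is 21.7%, beside 15.1% of all genes with 3 or more probe sets. Above 0 on every one were 2 (8.7%, EFNA2 and PLXNA2), beside 13.4%. The B-type plexins were lower on their main probe sets, with PLXNB1 at -0.24 (106 to 89.9), PLXNB2 at -0.22 (469 to 402) and PLXNB3 at -0.13 (51.0 to 46.7). The other probe set of PLXNB1 read 61.1 and 59.8 (-0.03), and that of PLXNB2 was dim at 28.9 and 24.5 (-0.24). PLXND1, the SEMA3E receptor, was at 0.06 (137 to 143) on its main probe set, but its other 2 lay below 0, at -0.20 (74.7 to 65.2) and -0.10 (46.3 to 43.2), and the mean of all 3 was -0.08. PLXNA3 was at 0.01 (73.0 to 73.5), with its dim probe sets at -0.22 and -0.25. PLXNC1 was at -0.01 (96.1 to 95.1) on its main probe set and at 0.12 on the next. Its dim probe sets gave -0.57 (21.7 to 14.6) and -0.48 (8.99 to 6.43). PLXNA4 was dim at 33.7 and 33.4.

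Ephrins had a median of -0.08 over 8 genes. The 7 above the median signal lay below 0, beside 50.2% of all genes above that signal. Of these 7, EFNB1 (-0.003), EFNA3 (-0.02) and EFNA5 (-0.03) were close to 0. With equal array medians EFNB1 and EFNA3 came to 0.02 and 0.008, and EFNA5 averaged over its probe sets came to 0.11. EFNB2, the ephrin that marks arteries and binds EPHB4, read 1536 and 1228 (-0.32) on its main probe set but 225 and 231 (0.03) on the other. EFNA1, a ligand of EPHA2, read 1440 and 1196 on its 1 probe set (-0.27). EFNA4 was at -0.22 (115 to 98.4) and EFNB3 at -0.14 on both of its probe sets. EFNA5 read 447 and 439 (-0.03), and its other 3 probe sets lay above 0, between 0.06 and 0.29. EFNB1 was the ephrin that differed least, at 79.4 and 79.2, and EFNA3 read 68.2 and 67.4. EFNA1, EFNA3 and EFNA4 lie close together on chromosome 1 and were at -0.27, -0.02 and -0.22. EFNA2 was dim at 27.0 and 27.3.

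Eph receptors had a median of -0.05 over 13 genes, and 7 of them were dim. EPHA2, the main Eph receptor of many epithelial cells, read 441 and 365 on its 1 probe set (-0.27, 1.21-fold lower). EPHB4, the receptor of EFNB2, read 424 and 392 (-0.11) on its main probe set and 100.4 and 99.5 (-0.01) on the other. EPHA1 read 235 and 223 (-0.07) and EPHB3 read 136 and 138 (0.01). The pseudokinase EPHA10 was at 0.06 (60.9 to 63.4) and EPHA8 at 0.07 (51.2 to 53.9), with the dim probe set of EPHA8 at -0.11. EPHA4, which binds ephrins of both types, lay below 0 on all 5 of its probe sets, between -0.38 and -0.06, but its brightest probe set read only 24.9 and 20.9. EPHA3, EPHA5, EPHA6, EPHA7, EPHB1 and EPHB6 were also dim, between 8.59 and 29.5 on their main probe sets, with differences between -0.10 and 0.21.

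**Figure D3:**
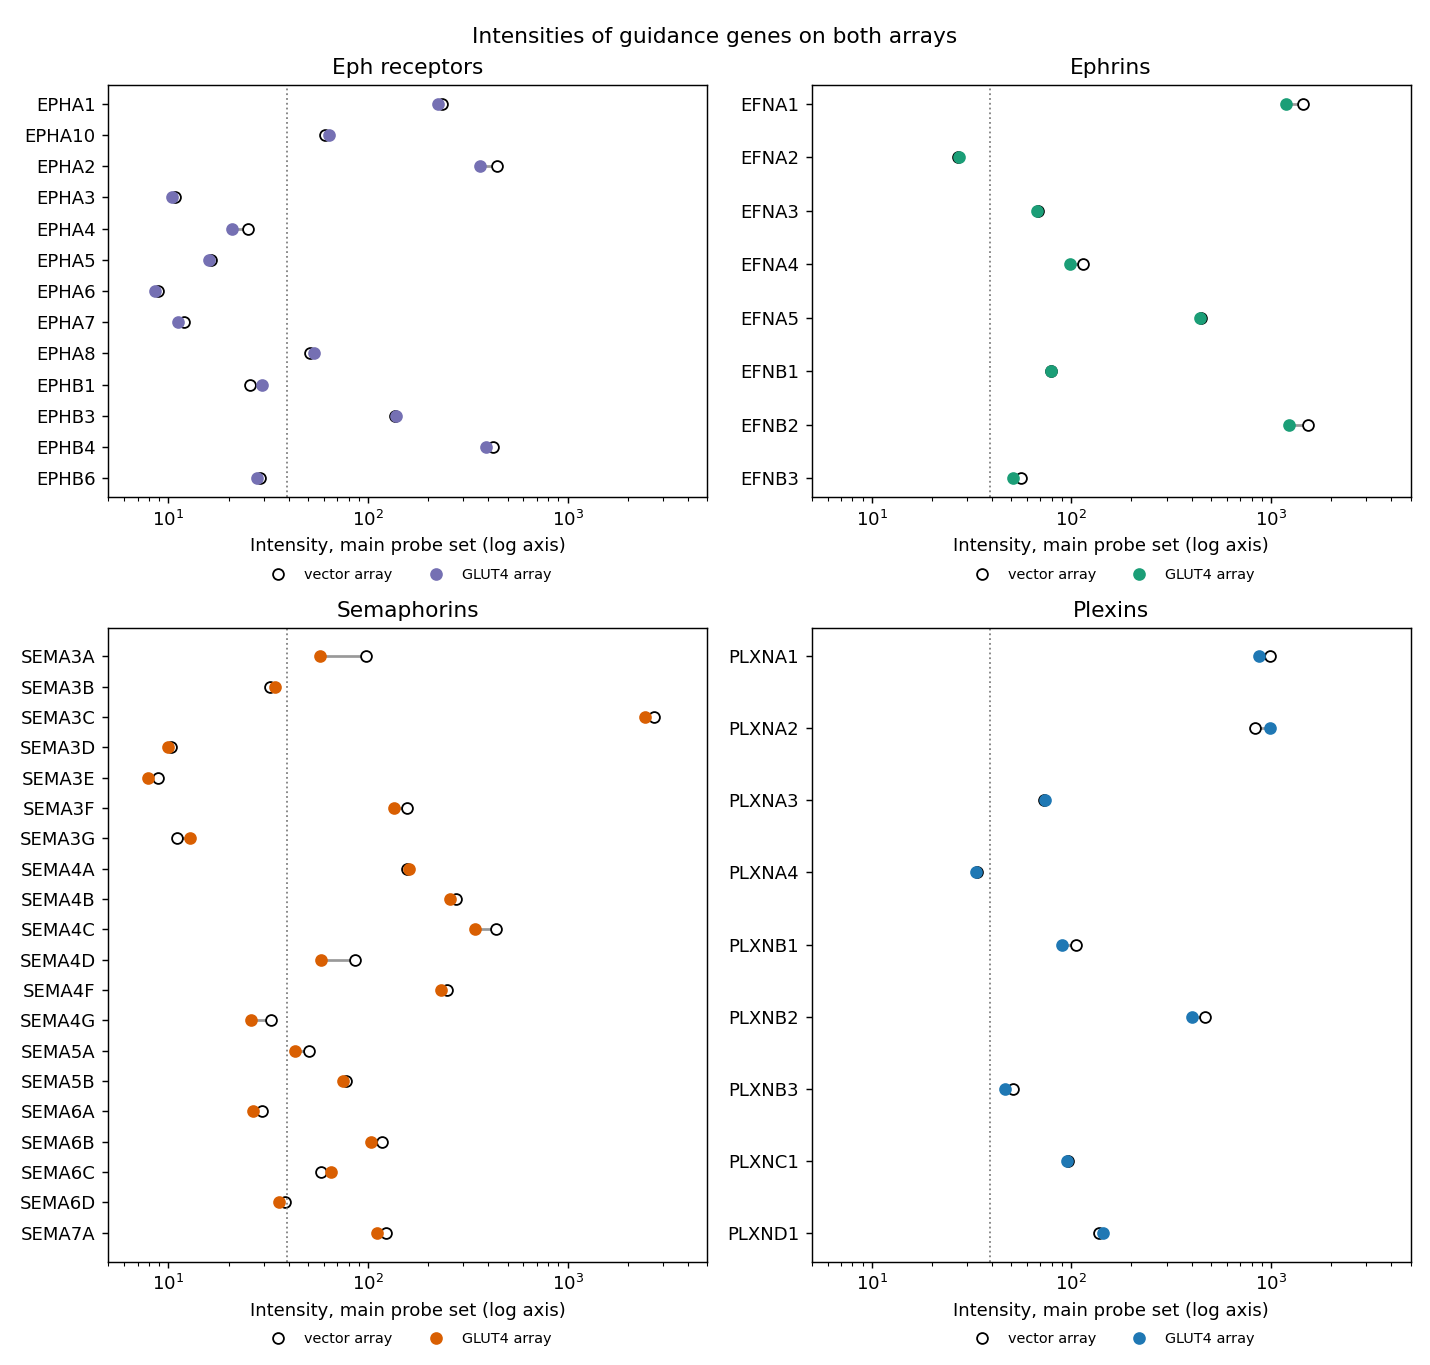
Intensities of the main probe set of each guidance gene are shown on a log axis, with open circles for the vector array, filled circles for the GLUT4 array and a dotted line at the median signal of all probe sets (39.3). The circles of most genes nearly coincide, while those of SEMA3A (98.1 and 57.7) and SEMA4D (86.1 and 58.2) stand apart.

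Ligands were compared with receptors as the groups that meet at the cell surface. The median difference was -0.14 over the 28 ligand genes, 23 of them below 0, and -0.04 over the 22 receptor genes, 15 of them below 0. The difference of -0.09 between these medians was 0.01 when all probe sets of each gene were averaged. The difference of the ligand lay below that of its receptor in 29 of 36 pairs listed from known binding and formed by 17 ligands. The gap was beyond 0.29, the SD between probe sets of the same gene, in 14. With all probe sets of each gene averaged, these counts were 21 and 6 of 36, and without the pairs of NRP1 they were 26 and 11 of 33, both chosen after seeing the data. The ligand lay above its receptor by more than 0.29 in 0 pairs. That count was 1 with averaging and 2 with NRP1 read by its second brightest probe set, also chosen after seeing the data. These pairs share genes, with SEMA3A and SEMA4D each in several of the wider gaps, and are not independent of each other. EFNA1 and EPHA2 were lower by the same amount (-0.27 each). For EFNB2 and EPHB4 the differences were -0.32 and -0.11, for SEMA4D and PLXNB1 -0.57 and -0.24, and for SEMA4C and PLXNB2 -0.35 and -0.22. These are values of main probe sets, and the other probe sets of EFNB2, SEMA4D and PLXNB1 gave 0.03, 0.16 and -0.03. For SEMA3A and PLXNA2 they were -0.76 and 0.25, while for SEMA3A and its co-receptor NRP1 the gap was -1.16 or -0.32, depending on which of the brightest NRP1 probe sets was read.

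The neuropilins and other co-receptors, 8 genes in all, had a median of 0.01. On main probe sets 0 of them passed 1.5-fold, beside 1.54% lower and 1.84% higher among all genes. NRP2, the co-receptor of SEMA3F and SEMA3C, read 62.2 and 83.4 (0.42) on its main probe set, and 9 of its 11 probe sets lay above 0. Above the median signal were only the main probe set and a probe set at 34.5 and 48.4 (0.49). The others were all dim. Of the dim ones, a probe set at 18.9 and 32.6 was past 1.5-fold at 0.79, and another at 37.0 and 30.0 gave -0.30. NRP1, the co-receptor of SEMA3A, gave opposite answers on its brightest probe sets, 75.8 and 99.6 (0.39) on one and 90.2 and 66.4 (-0.44) on the other, so no direction can be given for it. MET, a kinase that associates with B-type plexins, was at -0.03 (4723 to 4615).

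Of the genes listed as signalling partners of Eph receptors and ephrins, 29 of 32 were measured, and 0 passed 1.5-fold in either direction on their main probe sets. Their median was -0.07. The phosphatase PTPRO, which dephosphorylates Eph receptors, was the highest at 0.54 (599 to 872), and the adaptor GRB7 was the lowest at -0.48 (66.3 to 47.6). Of the genes that act with or after plexins, 33 of 35 listed were measured, and 0 passed 1.5-fold on their main probe sets. Their median was -0.04, with GSK3B, a kinase, lowest at -0.49 (1326 to 945). RND3, a GTPase without hydrolysing activity, read 11146 and 10867 (-0.04). Of the 22 netrins, slits and their receptors, which are guidance cues of other families, 1 was more than 1.5-fold lower and 0 were higher, with a median of -0.09. Among all genes, 1.54% were more than 1.5-fold lower and 1.84% more than 1.5-fold higher. The counts in these lists lie near that background. ROBO4, a slit receptor family member known from endothelium, read 93.0 and 59.3 (-0.65) on its main probe set and 41.3 and 42.8 (0.05) on the other, and its mean of -0.30 was within 1.5-fold. SLIT2, a ROBO ligand, was at -0.40 (315 to 239).

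**Figure D4:**
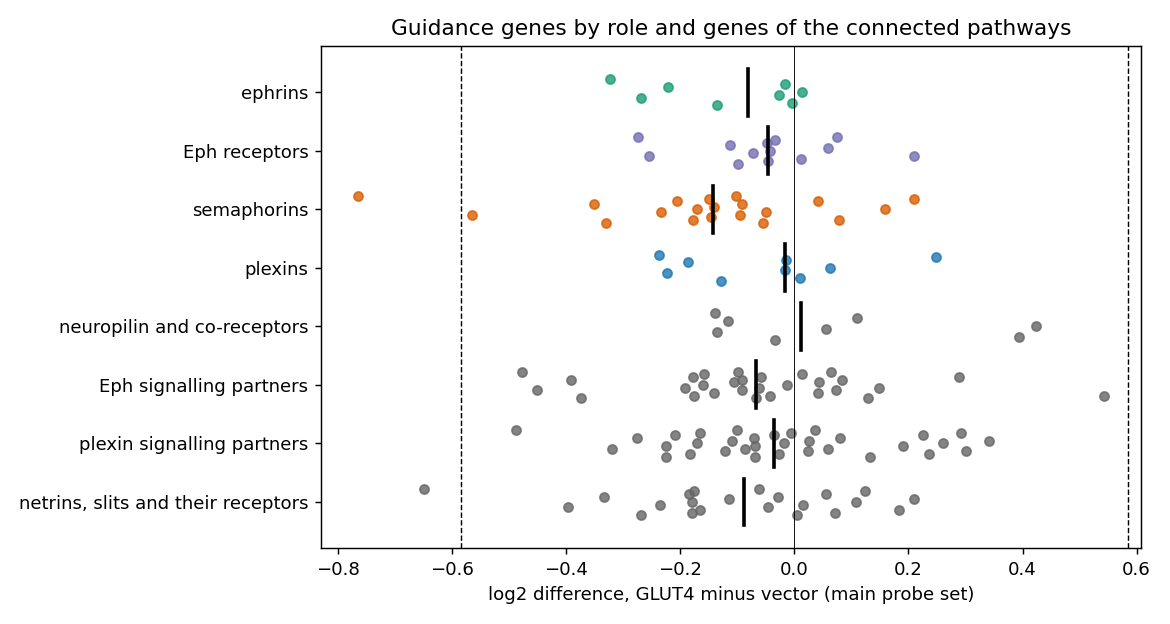
Each point is 1 gene by its main probe set, with the log2 difference between the GLUT4 and the vector array on the horizontal axis, lists of genes on the vertical axis, black bars at the medians and dashed lines at 1.5-fold. The medians lie between -0.14 (semaphorins) and 0.01 (co-receptors), and the points past a dashed line are SEMA3A and ROBO4.

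Markers of other cell types were read beside these values, since endothelial cells, fibroblasts and neurons also use guidance genes. Of 6 endothelial markers, 1 was more than 1.5-fold lower with GLUT4, the adhesion molecule PECAM1 (141 to 48.2), and 0 were higher. The endothelial cadherin CDH5 was dim at 19.1 and 17.0, and the receptor KDR read 6.32 and 6.84. Of 6 fibroblast markers, 2 were more than 1.5-fold higher, the proteoglycans DCN (482 to 1050.1) and LUM (38.5 to 79.9). On main probe sets, 0 of the 6 lay below 0. The collagen gene COL1A1 read 224 and 226 (0.01), with its probe sets between -0.12 and 1.07, while COL1A2 and COL3A1 were dim on both arrays. Of 7 leukocyte markers analysed here, 1 was more than 1.5-fold lower, CD14 (251 to 143), and PTPRC read 8.30 and 8.14. Of 6 neuronal markers, 0 passed 1.5-fold. Beside these counts, 1.54% of all genes were more than 1.5-fold lower and 1.84% more than 1.5-fold higher. Summed intensities ran from 296 to 209 for the endothelial, from 834 to 1459 for the fibroblast, from 361 to 252 for the leukocyte and from 446 to 355 for the neuronal markers. In each list 1 gene carried most of that change. Without it, chosen after seeing the data, the sums ran from 155 to 161 (endothelial, without PECAM1), from 352 to 408 (fibroblast, without DCN), from 109.8 to 109.1 (leukocyte, without CD14) and from 174 to 158 (neuronal, without SYT1). The median differences of these lists were 0.05, 0.19, -0.03 and -0.15. The part of any of these in the difference of SEMA3A was not tested. With 1 array per group, GLUT4 and any other difference between the cell lines cannot be told apart.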

How the data were processed

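Total RNA of FaDu cells with the control vector or GLUT4 was measured on 1 array each. According to the methods and the submitters' processing notes, the authors used GeneSpring and MAS5 (versions not given in the sources used here), and the order of these steps is not given either. The deposited values are linear intensities that had been brought to a common scale (medians 39.7 for vector and 39.1 for GLUT4, the same maximum on both).

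Differences were taken between log2 intensities, with a floor of 1. Probe sets that name several genes (1801, among them 1 of SEMA3B) or none (11777) named no gene. Neighbouring genes were taken from RefSeq (GRCh38.p14). The members and lists were chosen with earlier results of these data known. Guidance genes were named when a probe set passed 1.5-fold, when they were among the 3 brightest of a role, or when they differed most or least in it. In the connected lists, genes past 1.5-fold were named, with NRP1, NRP2 and MET. Other genes in the text were picked with their values in view. Precision is limited by the number of arrays. The calculation of differences and 1.5-fold calls was checked on simulated arrays with large known changes and independent noise. That check does not bear on shifts as small as most of those described here. Python 3.11.15 was used with pandas 2.3.3, numpy 2.4.6, matplotlib 3.10.9 and statsmodels 0.14.6.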

Additional observations from a re-analysis of the deposited data

How the results depend on the processing

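Scaling was varied in 3 ways (quantile normalization, loess, equal medians), and 32 was added to all intensities, dim probe sets or those ending in x_at or s_at were left out, or each gene was averaged over its probe sets. With the 3 scalings, the counts of guidance genes and probe sets past 1.5-fold were those given. With the offset of 32, 0 guidance genes and 0 guidance probe sets were past 1.5-fold in either direction, and the ligand median was -0.085. Above the median signal, 0 probe sets were higher and 1 was lower. With all probe sets averaged, the ligand median was -0.077, the receptor median -0.092 and the difference between them 0.015. Guidance genes below 0 numbered 34 of 50 with equal medians and with loess, and 35 with averaging. Of 327 values of the 50 guidance genes under these alternatives, 322 moved by less than 0.20, the spread of 1 probe set. The others were SEMA3A with the offset (-0.54) and, with all probe sets averaged, SEMA4D (-0.21), SEMA5A (0.20, from -0.23), PLXNC1 (-0.24) and SEMA6A (0.07). The gap between the guidance and the all-gene median was -0.12 above the median signal, -0.04 with the offset and -0.03 without x_at and s_at probe sets. NRP1 came to -0.44 without x_at and s_at probe sets and to -0.04 averaged. Beyond the offset and the restriction by construction, the cause was not tested. No paired analysis was possible because each group holds 1 array. Dim probe sets limit what could be seen for 16 of the 50 genes.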
